A study of Mus musculus with 4 samples.

Results

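Toll-like receptors (TLRs) are the sensors with which innate immune cells detect microbial products and molecules released by damaged tissue. The gene set described here holds 10 genes: 6 receptors (Tlr2, Tlr3, Tlr4, Tlr7, Tlr9 and Tlr13), 3 accessory genes (Cd14, Ly86 and Cd180) and the adaptor gene Myd88. They were chosen by name with earlier results of these data known, so counts over them are descriptions and not tests of the family. All 10 were found among the 21883 features of each deposited table.

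The 4 libraries came from the cut side and the opposite side of young adult male wild-type mice of the BL6/C57 strain, 7 days after transection of the left sciatic and femoral nerves. The groups were ipsilateral lumbar dorsal spinal cord, contralateral lumbar dorsal spinal cord, ipsilateral dorsal root ganglia (DRG) of lumbar levels 4 to 6 and contralateral DRG of the same levels, with 1 library each. Every group carried the same injury, since the contralateral tissue was taken from operated mice. Whether animals were pooled is not stated. With 1 library per group no difference below has a replicate check, and the authors' p-values and q-values compare libraries, not conditions.

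As background, TLR2 and TLR4 sit in the plasma membrane, where TLR2 pairs with TLR1 or TLR6 and TLR4 works with the secreted protein MD-2, the product of Ly96. CD14 hands lipopolysaccharide and other lipids to them. TLR3, TLR7, TLR9 and TLR13 face the inside of endosomes and detect nucleic acids: double-stranded RNA, single-stranded RNA, unmethylated CpG DNA and bacterial ribosomal RNA. UNC93B1 carries these endosomal receptors there from the endoplasmic reticulum. CD180 is a TLR4-like receptor without a signalling domain, and MD-1, the product of Ly86, is its partner protein. MyD88 relays the signal of the TLRs in the set other than TLR3, which signals through TRIF, the product of Ticam1. In nervous tissue most of these genes are known from microglia and macrophages, while Tlr3 is also known from astrocytes.

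Levels are given in FPKM, a fragment count that Cuffdiff divides by the length of the transcript and by the depth of the library. A fold is the plain ratio of ipsilateral to contralateral FPKM. Its 95% interval was worked out from the standard error behind the authors' deposited table and holds no variation between animals. The log2 ratio is that of (ipsilateral FPKM + 1) over (contralateral FPKM + 1), which makes differences of low genes look smaller than they are. Genes that reached 1 FPKM in at least 1 library of a tissue are called measured there. A measured gene is called 2-fold higher from a log2 ratio of 1 upwards and 2-fold lower from -1 downwards. In bulk tissue, more cells of a type and more RNA per cell cannot be told apart.

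The summed FPKM was 442196 in ipsilateral and 425636 in contralateral cord, and 442298 in ipsilateral and 431795 in contralateral DRG. Absolute read numbers are unknown. Genes whose standard error is that of a single read in each library gave the relative depth: 1 read was worth 1.35 times as much FPKM in ipsilateral as in contralateral cord, and 0.639 times as much in ipsilateral as in contralateral DRG. The median log2 ratio over all measured features was 0.02 in cord and 0.05 in DRG. Cord held the microglia genes P2ry12 (30.2 FPKM ipsilaterally, 8.63 contralaterally) and Tmem119 (13.3 ipsilaterally, 4.44 contralaterally), while 6 of the 7 genes of tissue and perivascular macrophages stayed under 1 FPKM on both sides. DRG held the macrophage genes Mrc1 (14.7 FPKM ipsilaterally, 3.51 contralaterally) and Cd163 (14.8 ipsilaterally, 3.99 contralaterally). The microglia genes were not particular to cord: 7 of the 9 on the list were measured in DRG. The list summed to 119 FPKM ipsilaterally and 80.0 contralaterally in DRG, and to 353 ipsilaterally and 124 contralaterally in cord. DRG also held RNA of blood cells, with the neutrophil gene S100a8 at 70.4 FPKM ipsilaterally and 76.95 contralaterally. Contralateral DRG held traces of the oligodendrocyte genes Mobp (0.04 FPKM ipsilaterally, 1.0 contralaterally) and Opalin (listed at 0 ipsilaterally, 0.89 contralaterally). Their part in the values below was not tested.

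The stretches printed here show where 3 of the genes called on the injured side begin. Each holds the 250 bases directly before the transcription start of Tlr2, Tlr13 or Ly86, taken from RefSeq on GRCm38.p6 and written 5′ to 3′ on the gene's strand. Capitals mark matches on either strand to AGGAAG, the core letters bound by the myeloid factor PU.1. The window of Cd180, which is also called in cord, holds no such match and is not printed.

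Tlr2 (chr3:83841609-83841858, minus strand): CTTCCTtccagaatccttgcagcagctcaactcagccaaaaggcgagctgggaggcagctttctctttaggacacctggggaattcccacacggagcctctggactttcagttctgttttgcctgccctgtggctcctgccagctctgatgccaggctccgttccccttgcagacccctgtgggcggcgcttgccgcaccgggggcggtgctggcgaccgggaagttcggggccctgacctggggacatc
Tlr13 (chrX:106143025-106143274, plus strand): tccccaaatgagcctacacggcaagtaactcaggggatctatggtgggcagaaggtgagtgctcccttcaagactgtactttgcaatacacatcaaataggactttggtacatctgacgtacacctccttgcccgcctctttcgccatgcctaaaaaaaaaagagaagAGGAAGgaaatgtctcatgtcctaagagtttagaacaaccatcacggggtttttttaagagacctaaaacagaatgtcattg
Ly86 (chr13:37345095-37345344, plus strand): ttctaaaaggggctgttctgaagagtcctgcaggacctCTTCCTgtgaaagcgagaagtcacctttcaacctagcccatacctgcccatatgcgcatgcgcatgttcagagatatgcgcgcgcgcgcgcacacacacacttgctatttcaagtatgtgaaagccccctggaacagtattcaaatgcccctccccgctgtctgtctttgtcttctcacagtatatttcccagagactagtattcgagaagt

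Of the 10 genes, 7 had such a window: Tlr2, Tlr3, Tlr9, Tlr13, Ly86, Cd180 and Myd88. AGGAAG or its complement lay in 4 of the 7 (Tlr2, Tlr9, Tlr13 and Ly86) and in 29.5% of all 32851 windows of the same length. The match began 250 bases before the start in Tlr2, 212 in Ly86, 111 in Tlr9 and 82 in Tlr13. TGANTCA, the letters of the AP-1 site, lay in the Tlr9 window alone, 1 of the 7, and in 6.75% of all windows. The motifs do not overlap. These matches are letters in a window and not measured binding.

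In ipsilateral dorsal cord, the accessory genes Cd14, Cd180 and Ly86 and the receptor gene Tlr13 were higher, and the authors' deposited table calls all 4. That is 4 of 10 genes, where 4.52% of the tested features were called higher. None of the 10 was called lower, where 1.55% of the tested features were. By the 2-fold rule, 3 of the 9 measured genes were higher (Cd14, Cd180 and Ly86), where 4.46% of the measured features were. None was 2-fold lower, where 1.64% were. The ipsilateral value was the higher one for 9 of the 10 genes and the lower one for Tlr3. The median log2 ratio of all measured features in cord was 0.02, and the share of features higher ipsilaterally was not computed.

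Cd14 had 3.13 FPKM in ipsilateral and 0.53 FPKM in contralateral cord. It was 5.87-fold higher, with an interval of 2.02 to 17.1, and had q = 0.0275 in the authors' deposited table. Its position on mm9 is chromosome 18, 36884720 to 36886308. CD14 is a lipid-anchored surface protein of monocytes and macrophages, and its gene had the largest fold of the 10 in either tissue. The interval is wide: read as counting error alone, its standard error corresponds to 18 reads ipsilaterally and 4.14 contralaterally.

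Cd180 (mm9 chromosome 13, 103483637 to 103496711) had 6.21 FPKM in ipsilateral and 1.84 FPKM in contralateral cord. This was a 3.38-fold difference, with an interval of 1.74 to 6.57 and q = 0.0117 in the authors' deposited table. Ly86, its partner gene (chromosome 13, 37437213 to 37510905), had 41.1 FPKM in ipsilateral and 18.9 FPKM in contralateral cord, a fold of 2.18 (interval 1.36 to 3.47; q = 0.0267 in the authors' deposited table). Both genes of the CD180 and MD-1 pair were thus higher on the injured side. Ly86 stood at 6.62 times the FPKM of Cd180 ipsilaterally and 10.3 times contralaterally.

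Among the endosomal receptors, Tlr13 (chromosome X, 103338613 to 103355832) had 1.49 FPKM in ipsilateral and 0.32 FPKM in contralateral cord. The fold was 4.67, with an interval of 1.86 to 11.7 and q = 0.0252 in the authors' deposited table. Its log2 ratio was 0.92, just under the 2-fold rule because of the pseudocount. Tlr9 (chromosome 9, 106124928 to 106129207) had 1.0 FPKM ipsilaterally and 0.43 contralaterally, a fold of 2.31 whose interval of 0.895 to 5.96 includes no difference. Tlr7 (chromosome X, 163742862 to 163768460) was close between sides, at 1.4 FPKM ipsilaterally and 1.11 contralaterally, a fold of 1.26 (0.594 to 2.69).

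Tlr3 (chromosome 8, 46481018 to 46495893) was the highest receptor in cord and the gene with the lower ipsilateral value, at 5.81 FPKM ipsilaterally and 8.01 contralaterally. The fold was 0.725, with an interval of 0.467 to 1.12, and the authors' deposited table does not call it (q = 0.425). Tlr3 made up 41.6% of the summed FPKM of the 12 mouse TLR genes ipsilaterally and 65.9% contralaterally. The sum itself was 14 FPKM ipsilaterally and 12.2 contralaterally. Of the endosomal receptors, the 7 genes together summed to 9.91 FPKM ipsilaterally and 9.92 contralaterally, and the 6 without Tlr3 to 4.10 FPKM ipsilaterally and 1.91 contralaterally. Of the 6 astrocyte markers, 4 had a log2 ratio above 0 in cord and 2 below, with a median of 0.08, and none was 2-fold higher or lower. They summed to 2014 FPKM ipsilaterally and 1715 contralaterally, and Gfap, at 881 FPKM ipsilaterally and 469 contralaterally, held the highest ratio of the list. Their part in the Tlr3 value was not tested.

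The plasma membrane receptors Tlr2 and Tlr4 were low in cord and were not called. Tlr2 (chromosome 3, 83640193 to 83645530), which detects bacterial lipoproteins, had 1.63 FPKM ipsilaterally and 1.12 contralaterally, a fold of 1.46 (0.651 to 3.26). Tlr4 (chromosome 4, 66488844 to 66503830) had 0.78 FPKM ipsilaterally and 0.56 contralaterally and did not pass the 1 FPKM filter. Its fold was 1.4, with an interval of 0.564 to 3.48. Cd14 therefore stood at 4.01 times the FPKM of Tlr4 ipsilaterally and 0.957 times contralaterally. Myd88 (chromosome 9, 119245105 to 119249158) had 4.40 FPKM ipsilaterally and 3.15 contralaterally, a fold of 1.4 (0.711 to 2.75). For Tlr2, Tlr4, Tlr7 and Myd88 a difference was not detectable with these standard errors, and the intervals leave room for folds up to their upper bounds.

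**Figure D1:**
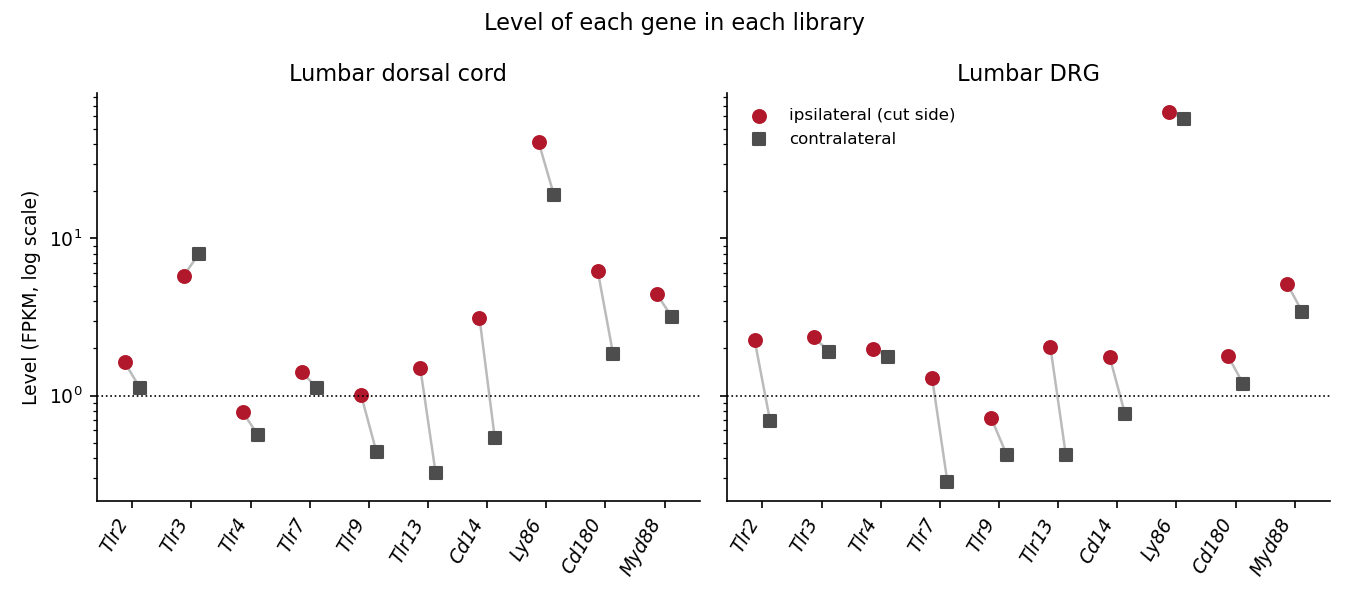
Level of each of the 10 genes in FPKM (log scale) in lumbar dorsal cord (left) and lumbar DRG (right). Circles are the ipsilateral library and squares the contralateral one, 1 library each, and the dotted line is 1 FPKM. Ly86 stands highest in every library, from 18.9 to 63.9 FPKM, and Tlr3 in cord is the 1 pair with the square above the circle.

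In ipsilateral DRG the called genes were receptors: Tlr2, Tlr7 and Tlr13. They were 3 of 10, where the authors' deposited table calls 4.64% of the tested features higher. None of the 10 was called lower, where 1.9% were. By the 2-fold rule only Tlr13 was higher, 1 of 9 measured genes, where 3.04% of the measured features were. None was 2-fold lower, where 0.784% were. All 10 had the higher value ipsilaterally. The median log2 ratio of all measured features was also above 0 in DRG, at 0.05, and the share of features higher ipsilaterally was not computed.

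Tlr13 had 2.03 FPKM in ipsilateral and 0.42 FPKM in contralateral DRG. It was 4.84-fold higher, with an interval of 2.43 to 9.65, and q = 0.000446 in the authors' deposited table. It was the 1 gene of the set that this table calls in both tissues. Tlr7 had 1.29 FPKM in ipsilateral and 0.28 FPKM in contralateral DRG, a 4.62-fold difference (2.08 to 10.2; q = 0.00555 in the authors' deposited table). Tlr2 had 2.24 FPKM ipsilaterally and 0.69 contralaterally, a 3.25-fold difference (1.64 to 6.45; q = 0.0176 in the authors' deposited table). These 3 genes were under 1 FPKM on the contralateral side and above it on the injured side. Their contralateral standard errors correspond to counting 9.13, 6.90 and 9.79 reads for Tlr13, Tlr7 and Tlr2.

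Cd14 had 1.77 FPKM in ipsilateral and 0.77 FPKM in contralateral DRG, a fold of 2.31. Its interval of 0.999 to 5.34 just includes no difference, and the authors' deposited table does not call it (q = 0.300). Tlr9 had 0.72 FPKM ipsilaterally and 0.42 contralaterally, under the filter on both sides, with a fold of 1.70 (0.778 to 3.73). Myd88 had 5.16 FPKM ipsilaterally and 3.41 contralaterally, a fold of 1.51 (0.885 to 2.59). Cd180 had 1.79 FPKM ipsilaterally and 1.19 contralaterally, a fold of 1.51 (0.774 to 2.95). None of these 4 was called.

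The remaining 3 genes were nearly level between the sides of the DRG. Ly86 had 63.9 FPKM ipsilaterally and 57.6 contralaterally, a fold of 1.11 (0.766 to 1.6). At that level it was above 89.9% of the measured features of the ipsilateral library and 88.8% of those of the contralateral one. Tlr4 had 1.98 FPKM ipsilaterally and 1.76 contralaterally (fold 1.13, 0.658 to 1.93), and Tlr3 had 2.34 ipsilaterally and 1.91 contralaterally (fold 1.23, 0.740 to 2.04). The 12 TLR genes together summed to 14 FPKM ipsilaterally and 7.83 contralaterally. The 6 endosomal receptors without Tlr3 summed to 5.30 FPKM ipsilaterally and 1.71 contralaterally, and the 5 plasma membrane receptors to 6.33 ipsilaterally and 4.21 contralaterally.

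**Figure D2:**
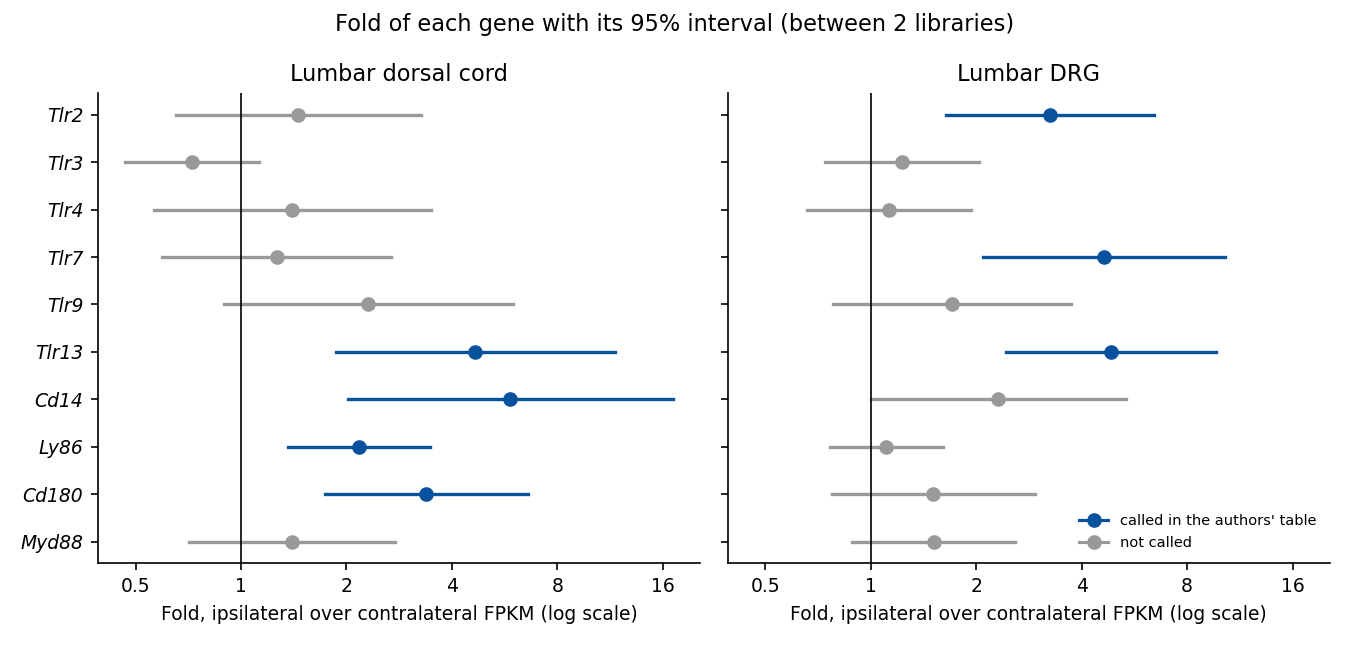
Fold of each gene, ipsilateral over contralateral FPKM (log scale), in dorsal cord (left) and DRG (right), with its 95% interval, computed from the fold change and test statistic of the authors' deposited table. Blue marks genes that table calls: Tlr13, Cd14, Ly86 and Cd180 in cord, and Tlr2, Tlr7 and Tlr13 in DRG. Only Tlr13 is blue in both.

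The 2 tissues were compared through their ratios, which needs no common scale between the tables. The 95% interval of the difference of the log2 folds, cord minus DRG, excluded 0 for 2 of the 10 genes. The share of all features with such an interval was not computed, so this count has no background. Ly86 had a log2 fold of 1.12 in cord and 0.15 in DRG, a difference of 0.97 with a 95% interval of 0.11 to 1.83. Tlr7 had a log2 fold of 0.34 in cord and 2.21 in DRG, a difference of -1.87 (-3.45 to -0.29). These intervals rest on the standard errors of single libraries and are not adjusted for the 10 comparisons.

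For the other 8 genes the interval of the difference included 0. Cd180 had a difference of 1.16 (-0.20 to 2.52), Cd14 of 1.34 (-0.61 to 3.30) and Tlr2 of -1.16 (-2.68 to 0.37), so that calls made in only 1 tissue were not shown to differ between tissues for these 3. Tlr13 had a difference of -0.05 (-1.71 to 1.61). Myd88 had a difference of -0.11 (-1.36 to 1.13), Tlr4 of 0.32 (-1.21 to 1.84), Tlr9 of 0.44 (-1.34 to 2.21) and Tlr3 of -0.76 (-1.73 to 0.21). The difference was above 0 for the accessory genes Cd14, Ly86 and Cd180 and for Tlr4 and Tlr9, and below 0 for Tlr2, Tlr3, Tlr7, Tlr13 and Myd88.

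**Figure D3:**
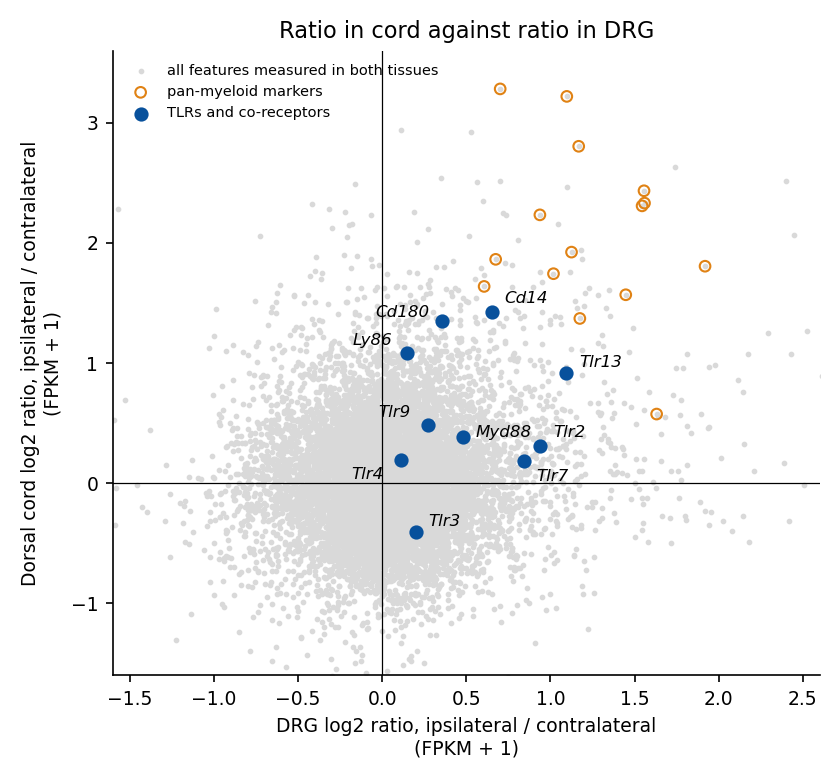
Log2 ratio in dorsal cord against log2 ratio in DRG, each of (ipsilateral FPKM + 1) over (contralateral FPKM + 1), for the 10 genes (blue), 15 pan-myeloid markers (orange rings) and all features measured in both tissues (grey; points beyond the axes are not drawn). Cd14, Cd180 and Ly86 lie above a log2 ratio of 1 in cord, Tlr13 lies past 1 in DRG, and Tlr3 is the 1 gene of the set below 0 in cord.

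Markers of myeloid cells moved in the same direction. The 15 pan-myeloid markers were all above 0 in cord, and 14 of them were 2-fold higher. Their median log2 ratio there was 1.92. They summed to 888 FPKM ipsilaterally and 181 contralaterally, a ratio of 4.91, and none was at 0. In DRG all 15 were above 0 and 11 were 2-fold higher, with a median of 1.17 and a sum of 252 FPKM ipsilaterally and 96.2 contralaterally, a ratio of 2.62. The median of the TLR and co-receptor genes that were measured was 0.48 in cord and 0.48 in DRG, over 9 genes each. These medians depend on the settings. A pseudocount of 0.1 FPKM gave 1.05 in cord and 0.58 in DRG. One of 3 FPKM gave 0.27 in cord and 0.34 in DRG, and a filter of 5 FPKM 1.08 and 0.31. That filter left only Tlr3, Ly86 and Cd180 of the set in cord, and only Ly86 and Myd88 in DRG. The pan-myeloid medians moved as well, to 2.362 in cord and 1.302 in DRG at 0.1 FPKM. They were 1.739 in cord and 1.042 in DRG at 3 FPKM, and 2.234 and 1.174 at the 5 FPKM filter.

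Set against that ratio of sums, 9 of the 10 genes had a smaller fold in cord, the exception being Cd14. For 6 of them (Tlr2, Tlr3, Tlr4, Tlr7, Ly86 and Myd88) the upper bound of the fold was also below 4.91. In DRG 7 of the 10 had a smaller fold than the pan-myeloid sum, and Tlr2, Tlr7 and Tlr13 had a larger one. The upper bound was below 2.62 for 4 genes, Tlr3, Tlr4, Ly86 and Myd88. By the 2-fold rule, 4.46% of all measured features were higher in cord and 3.04% in DRG. The share of all features with a fold below the ratio of sums was not computed, so these counts do not set the 10 genes apart. The ratio of sums has an error of its own that was not included. Ctss, a lysosomal protease gene, is a large part of both cord sums, at 360 FPKM ipsilaterally and 71.9 contralaterally. The part of myeloid cell number in the values of the set was not tested.

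Other TLR genes were low. Tlr1, the partner of Tlr2, had 0.93 FPKM ipsilaterally and 0.034 contralaterally in cord, and 0.72 ipsilaterally and 0.097 contralaterally in DRG. It stayed under 1 FPKM throughout, yet the authors' deposited table calls it in both tissues (q = 0.0022 in cord and q = 0.0296 in DRG). Tlr6, the other partner and a close paralog of Tlr1, had 0.41 FPKM ipsilaterally and 0.42 contralaterally in cord, and 0.26 ipsilaterally and 0.032 contralaterally in DRG. Tlr8, a sensor of RNA fragments, was listed at 0 in both cord libraries and had 1.11 FPKM ipsilaterally and 0.34 contralaterally in DRG. Tlr5, the flagellin receptor gene, had 0.31 FPKM ipsilaterally and 0.11 contralaterally in cord, and 1.12 ipsilaterally and 1.63 contralaterally in DRG.

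Unc93b1, which encodes the transporter of the endosomal receptors, was called higher in both tissues in the authors' deposited table. In cord it had 10.1 FPKM ipsilaterally and 3.45 contralaterally, a 2.93-fold difference (1.93 to 4.47). In DRG it had 9.67 FPKM ipsilaterally and 4.11 contralaterally, a 2.35-fold difference (1.47 to 3.78). It was the 1 of the 7 measured accessory and trafficking genes that was 2-fold higher in cord. In DRG, 2 of 9 were, Unc93b1 and Lbp, which encodes the lipopolysaccharide-binding protein and had 7.25 FPKM ipsilaterally and 2.56 contralaterally. Ly96, the TLR4 partner gene, had 1.23 FPKM ipsilaterally and 2.95 contralaterally in cord, and 3.67 ipsilaterally and 2.48 contralaterally in DRG, and was called in neither.

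The counts of the downstream lists stand beside the 4.46% of measured features that were 2-fold higher in cord and the 3.04% in DRG. Of 16 measured kinases and ubiquitin ligases, 1 was 2-fold higher in cord, the kinase gene Btk at 2.25 FPKM ipsilaterally and 0.59 contralaterally, and none in DRG. The medians of this list were 0.09 in cord and 0.20 in DRG. Of the transcription factor genes, 2 of 9 were 2-fold higher in cord, and the authors' deposited table calls both. Irf7, a factor of the interferon response downstream of the endosomal receptors, had 5.01 FPKM ipsilaterally and 0.97 contralaterally, and Irf8, a factor of myeloid cells, had 5.44 ipsilaterally and 1.52 contralaterally. None of 10 passed 2-fold in DRG, where Irf7 had 5.91 FPKM ipsilaterally and 6.10 contralaterally. The medians of the transcription factor list were 0.53 in cord and 0.04 in DRG. The NF-kB subunit gene Rela had 8.77 FPKM ipsilaterally and 8.57 contralaterally in cord, and 14.9 ipsilaterally and 10.7 contralaterally in DRG.

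Among inhibitors of the pathway, none of the 10 measured genes passed 2-fold in either tissue. The medians of this list were 0.06 in cord and 0.27 in DRG. Nfkbia, which encodes an NF-kB inhibitor and is itself an NF-kB target, had 11.05 FPKM ipsilaterally and 19.4 contralaterally in cord, and 15.6 ipsilaterally and 12.8 contralaterally in DRG. Socs3, a brake on cytokine signalling, had 1.52 FPKM ipsilaterally and 0.34 contralaterally in cord, and 4.41 ipsilaterally and 2.54 contralaterally in DRG.

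Of the 20 cytokine and other target genes, 5 were measured in cord and 6 in DRG. Of these, 2 of 5 were 2-fold higher in cord, Cd86 and Cxcl10, and none of 6 in DRG. The medians over these 5 and 6 genes were 0.99 in cord and 0.34 in DRG. The classical cytokine targets Tnf and Il1b were listed at 0 in both cord libraries. In DRG, Tnf had 0.28 FPKM ipsilaterally and 0.054 contralaterally, and Il1b had 0.82 ipsilaterally and 0.14 contralaterally. Cd86, a co-stimulatory surface protein gene, was called in both tissues in the authors' deposited table, at 3.32 FPKM ipsilaterally and 0.28 contralaterally in cord, and 1.29 ipsilaterally and 0.20 contralaterally in DRG. Cxcl10, an interferon-induced chemokine gene, had 2.23 FPKM ipsilaterally and 0.047 contralaterally in cord, and 7.66 ipsilaterally and 8.97 contralaterally in DRG. Its contralateral cord value was equivalent to 0.905 reads, and the interval of its cord fold was 5.84 to 381.

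Of the genes of endogenous TLR ligands, those called in the authors' deposited table encode proteins of the extracellular matrix. Of 11 measured in DRG, 1 was 2-fold higher, the proteoglycan gene Dcn at 494 FPKM ipsilaterally and 245 contralaterally. The authors' deposited table also calls Bgn (72.7 FPKM ipsilaterally, 39.1 contralaterally), Fn1 (15.5 ipsilaterally, 7.80 contralaterally) and Vcan (2.38 ipsilaterally, 1.33 contralaterally) in DRG. None of 9 measured in cord passed 2-fold, and the authors' deposited table calls Fn1 there, at 7.11 FPKM ipsilaterally and 3.71 contralaterally. Hmgb1, a nuclear protein gene whose product is a damage signal once released, had 19.5 FPKM ipsilaterally and 20.6 contralaterally in cord, and 11.15 ipsilaterally and 10.2 contralaterally in DRG. These are RNA levels and do not show how much ligand was released.

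**Figure D4:**
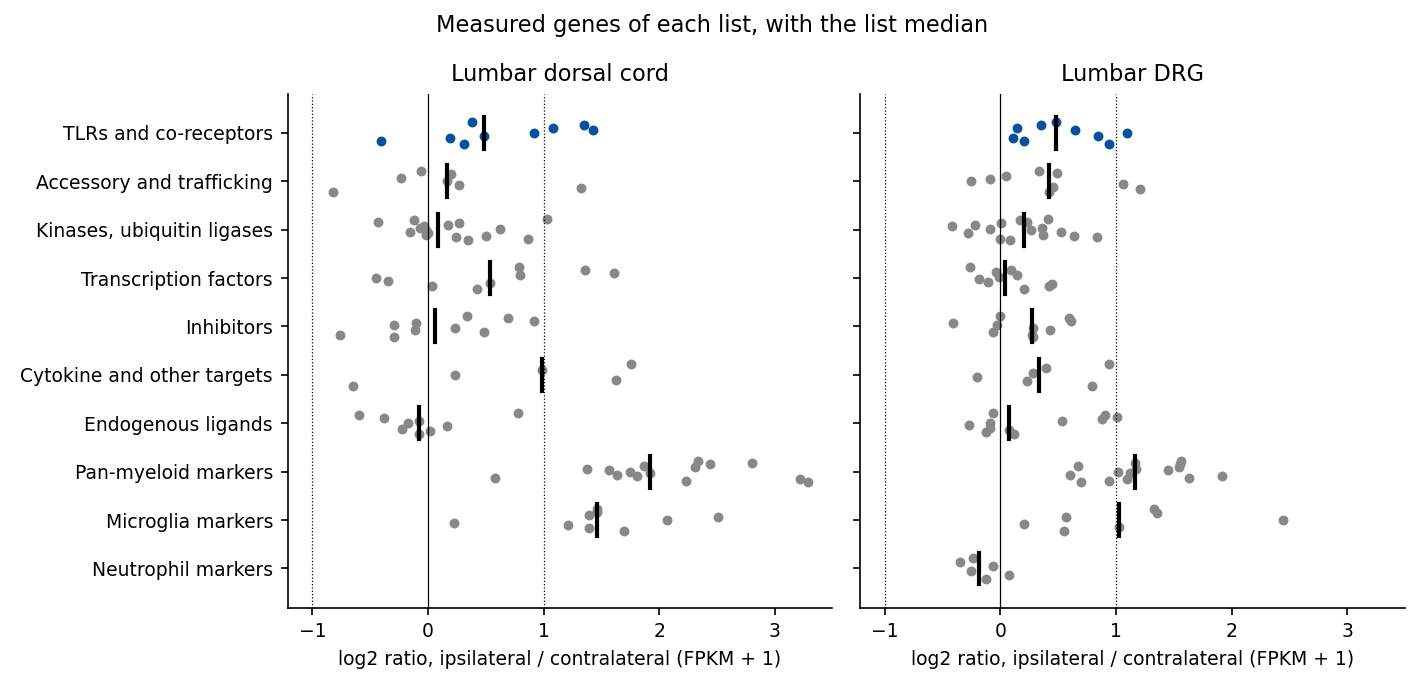
Log2 ratio of every measured gene (points) of the TLR set, the pathway lists and 3 marker lists, with the list median (bar), in dorsal cord (left) and DRG (right). Dotted lines mark a 2-fold difference. The pan-myeloid medians, 1.92 and 1.17, lie right of the median of the TLR set, 0.48 in each tissue, at a pseudocount of 1 FPKM. At 0.1 FPKM the pan-myeloid medians are 2.362 in cord and 1.302 in DRG, and those of the TLR set 1.05 and 0.58. No neutrophil marker reached 1 FPKM in cord.

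The features whose pair of ratios came nearest to the median pair of the set, out of 12229 measured in both tissues, were Mras, Eef2k, Ell, Hist1h2bc and Src, with distances of 0.017 to 0.037 on the log2 scale. Each point of that comparison rests on 4 libraries, and the median pair hides the spread within the set. Between genes of the set the order of the levels was led in all 4 libraries by Ly86, with Myd88 and Tlr3 among the top 4. The FPKM of 8 of the 10 genes was under 3 in both DRG libraries, and that of 5 of the 10 in both cord libraries.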

How the data were processed

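RNA sequencing values from 4 mouse libraries were used, 1 per group. The labels' protocols name a QIAGEN RNeasy kit for the RNA and an Epicentre ScriptSeq kit for the libraries. The tools were TopHat 1.4.0 and Cuffdiff 1.3.0 on the build mm9, per the submitters' processing notes. The annotation, filters and strand setting are not given in the sources used here. Per the file headers, the deposited tables, 1 per tissue, hold FPKM for each library, with the authors' p-values and q-values, log2 fold change and test statistic. Each table has its own normalisation, and every ratio stays within 1 table.

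From the deposited FPKM, log2 ratios were computed with a pseudocount of 1 FPKM and a filter of 1 FPKM (Python 3.11.15, pandas 2.3.3, numpy 2.4.6). No p-value was computed. The standard error of the log2 fold is the authors' log2 fold change over their test statistic. A two-sided normal test of the log2 fold over that standard error gives the authors' p-values, within 0.001. This held for 100% of the features with both libraries above 0 and a usable standard error. The standard error was turned into an equivalent number of reads under counting error alone, and intervals cover no more than the authors' model of 2 libraries. The code for the ratio and the 2-fold rule was checked on contralateral DRG values changed by fixed factors without noise. That check changed only well-expressed genes and did not cover the low levels of most of the set.

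The 10 genes, the 7 pathway lists and the 15 marker lists were chosen with earlier results of these data known. Named genes are the 10 and up to 4 genes of each pathway list, by absolute log2 ratio within a tissue. Others (Tlr1, Tlr6, Rela, Hmgb1, Tnf, Il1b and the markers named) were chosen after their values were seen. Syk, Spi1 and Ly6g had no row in the tables. The locus of none of the 10 genes overlaps that of another feature (0 overlaps). As alternatives, the pseudocount was set to 0.1 or 3 FPKM, the filter was dropped or raised to 5 FPKM, and the values were put through median or upper-quartile rescaling. The authors' call (q up to 0.05) was a further one. No columns of other samples were present (0). Promoter windows are RefSeq's on GRCm38.p6, and gene positions are those of the deposited tables on mm9.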

Additional observations from a re-analysis of the deposited data

Results flagged for a closer look

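Differences between the tissues in the ipsilateral over contralateral ratio were looked for among the 10 genes and the named pathway genes measured in both tissues. For Tlr7 and Ly86 the interval of the cord minus DRG difference of the log2 folds excluded 0, with differences of -1.87 and 0.97. The same held for Irf8, at 1.71 (0.45 to 2.96).

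Other genes had opposite directions in the 2 tissues, and with 1 library per group there is no replicate check of this. The interval of the cord minus DRG difference of the log2 folds excluded 0 for 7 of them (Cxcl10, Irf7, Irf1, Nfkbia, Dcn, Bgn and Vcan) and included 0 for the others. The pathway genes, Irf8 included, were named for a large log2 ratio within a tissue, which by itself favours a difference between tissues. The intervals are not adjusted for the number of genes compared, and the share of all features was not computed. Tlr3 had a log2 ratio of -0.40 in cord and 0.20 in DRG. Of the genes higher ipsilaterally in cord and lower in DRG, Cxcl10 had 1.62 in cord and -0.20 in DRG, Irf7 1.61 in cord and -0.04 in DRG, Irak2 0.87 in cord and -0.0048 in DRG, Irf1 0.79 in cord and -0.26 in DRG, Tab1 0.62 in cord and -0.09 in DRG, Nfkbie 0.49 in cord and -0.06 in DRG, and Cnpy3 0.26 in cord and -0.25 in DRG. Of the genes lower ipsilaterally in cord and higher in DRG, Ly96 had -0.82 in cord and 0.42 in DRG, Nfkbia -0.76 in cord and 0.27 in DRG, Dcn -0.59 in cord and 1.01 in DRG, Bgn -0.38 in cord and 0.88 in DRG, Lrrc59 -0.24 in cord and 0.05 in DRG, Peli1 -0.15 in cord and 0.52 in DRG, Nfkbiz -0.11 in cord and 0.42 in DRG, and Vcan -0.078 in cord and 0.54 in DRG.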

How the results depend on the processing

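No paired analysis was possible because each group has 1 library. All 10 genes kept the direction of their ratio in both tissues under both rescalings. A pseudocount added to both sides cannot change a direction, so those of 0.1 and 3 FPKM do not bear on it. Over all these settings the log2 ratio of Tlr3 in cord ranged from -0.46 to -0.32. The pseudocount moved the counts. In cord, 5 genes of the set were 2-fold higher at 0.1 FPKM and 1 at 3 FPKM, and in DRG 4 and 0. A filter of 5 FPKM was passed only by Ly86 and Myd88 in DRG and by Tlr3, Ly86 and Cd180 in cord. Under it 0 were 2-fold higher in DRG, where the authors' call gave 3. The median of the set at 0.1 FPKM, 3 FPKM and the 5 FPKM filter was 1.05, 0.27 and 1.08 in cord and 0.58, 0.34 and 0.31 in DRG.

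Over all features, 964 and 264 were 2-fold higher in cord at 0.1 and 3 FPKM, and 481 and 81 lower. The 5 FPKM filter gave 373 and 130. In DRG 679 and 204 were higher and 259 and 44 lower at 0.1 and 3 FPKM, 68 were lower at the 5 FPKM filter, and the authors' call gave 649 higher and 266 lower. The standard errors limit the 10 genes. Read as counting error alone, the contralateral values were equivalent to 4.14 reads (Cd14 in cord) to 56.9 reads (Tlr3 in cord). These equivalents are not read counts, since the standard errors may hold more than counting error. Hsp90b1, at 205 FPKM in contralateral DRG, had an equivalent of only 50.1 reads.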
